A study of Mus musculus with 2 samples.

Results

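The enzymes of central carbon metabolism were compared between Stat6 KO and WT intestinal stem cell cultures: glycolysis, gluconeogenesis, entry of fructose, the pentose phosphate pathway, pyruvate dehydrogenase and the tricarboxylic acid (TCA) cycle. The members were 47 named genes, found by symbol in both expression tables, out of 18944 genes listed. The symbols fall into 16 glycolytic, 6 gluconeogenic, 1 fructose, 5 pentose phosphate, 4 pyruvate dehydrogenase and 12 TCA cycle genes, with 3 cytosolic counterparts of TCA cycle enzymes. The series holds 2 RNA-seq libraries, 1 labelled Lgr5GFP-CreERT2 Stat6 KO and 1 labelled Lgr5GFP-CreERT2 WT. Both carry the Lgr5GFP-CreERT2 allele, which puts a fluorescent reporter and a tamoxifen-inducible Cre under the control of Lgr5, a gene of crypt base stem cells. Both came from mice 2 months old, and the cells were cultured with EGF, R-spondin 1 and the kinase inhibitor Y27632. Stat6 was targeted by a CRISPR/Cas lentivirus and deficient cells were then screened out, in a protocol that the labels give for both samples alike. The sources used here do not give whether WT cells were given a control virus or whether the KO culture is 1 clone. STAT6 is the transcription factor activated by interleukins 4 and 13, and the question was how transcript levels differ without it.

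Glycolysis splits glucose to pyruvate, which lactate dehydrogenase reduces to lactate or pyruvate dehydrogenase passes to the TCA cycle as acetyl-CoA. Gluconeogenesis runs back to glucose through its own enzymes at the irreversible steps, and the pentose phosphate pathway branches off at glucose 6-phosphate to make NADPH and ribose. In the small intestine, proliferating crypt cells are known for glycolysis, and villus enterocytes for absorbing glucose and fructose and for converting dietary fructose.

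The values are FPKM, fragment counts divided by transcript length and by the size of the library, so that genes of different length can be set side by side. They summed to 496255 in Stat6 KO and 504214 in WT. There is 1 library per genotype, so no difference has a replicate check and no test of genotype was made. Differences are given as a log2 ratio, that of Stat6 KO over WT after 1 was added to each FPKM. The ratio was taken for 12079 genes, those that reached 1 FPKM in Stat6 KO, in WT or in both. A gene was called higher or lower at 2-fold, a log2 ratio of at least 1 in size. The median log2 ratio of all genes tested was -0.18. Scaling by a trimmed mean of log ratios (TMM) raised log2 ratios by up to 0.23 and brought that median to 0.02. The Stat6 transcript itself was at 44.2 FPKM in Stat6 KO and 41.3 FPKM in WT (log2 ratio 0.10), so its level does not check the genotype label, and a small CRISPR deletion need not lower it.

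Of the 47 members, 46 reached the minimum level and 1, Ldhb, did not. The called members were Khk, G6pc and Pcx, all higher in Stat6 KO. That is 3 of 46, or 6.52%, where 2.44% of all genes tested were called higher. None of the 46 was called lower, where 2.18% of all genes were. At a threshold of 1.5-fold, 6 of 46 were higher (13.0%, against 5.70% of all genes) and 0 of 46 lower (against 11.4% of all genes). The 3 added at that threshold were Idh1, Ogdh and Mdh1. Of the 3 called at 2-fold, G6pc reached the minimum level only in Stat6 KO. With a pseudocount of 5, 1 of 46 members, Khk, was called higher at 2-fold, where 144 of all 12079 genes were.

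Most of the other members stood slightly higher in Stat6 KO. The median log2 ratio of the 46 was 0.16, which is 0.34 above the median of all genes, and the quartiles of the members were 0.05 and 0.39. A log2 ratio above 0 was found for 38 of 46 members (82.6%) and for 30.3% of all genes. The upper quartile of all genes, 0.06, was passed by 33 of 46 members. Only Pgls lay below the median of all genes. With TMM scaling the members' median became 0.38, 45 of 46 lay above 0, and 5 of 46 were called higher, where 3.56% of all genes were, and 0 of 46 lower, where 1.34% of all genes were. Together the 47 transcripts made up 3.80% of the summed FPKM in Stat6 KO and 3.25% in WT.

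**Figure D1:**
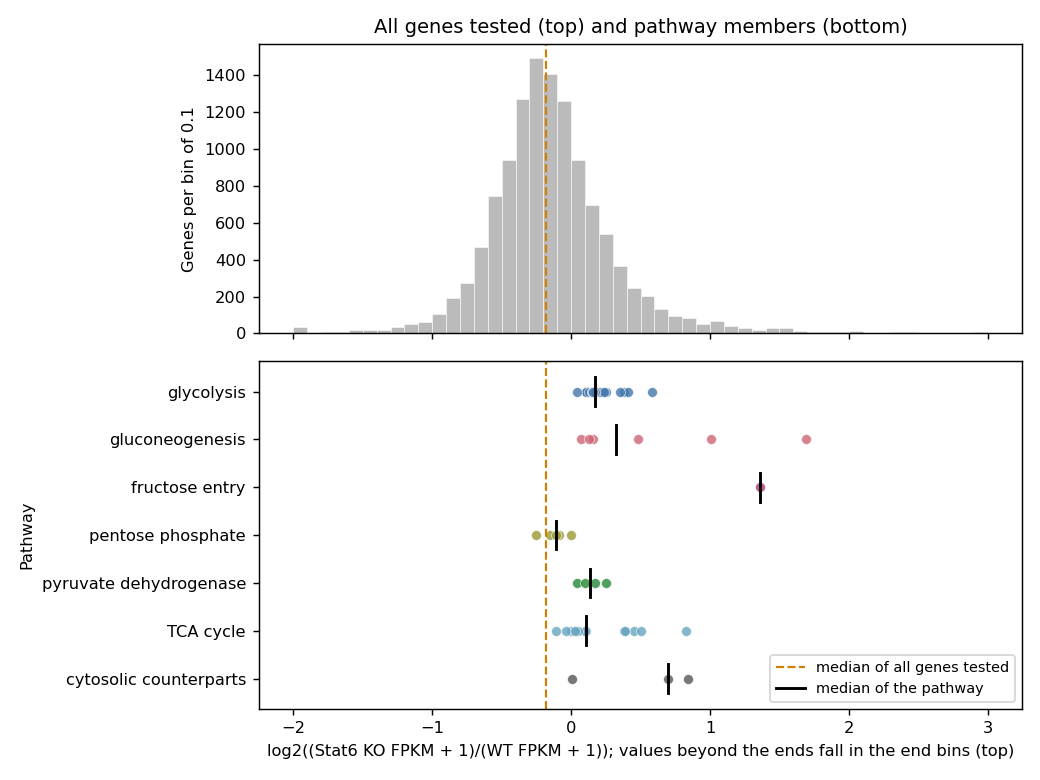
Log2 ratios of Stat6 KO over WT, as genes per bin of 0.1 for all 12079 genes tested (top) and as 1 point per member in each pathway (bottom). The dashed line is the median of all genes, -0.18, and the black bars are pathway medians; the pentose phosphate genes, with a median of -0.11, lie nearest to the dashed line.

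Levels of the glycolytic enzymes ran from below 1 FPKM for Ldhb to 4333 FPKM in Stat6 KO and 3897 FPKM in WT for Gapdh. All 15 tested members had a log2 ratio above 0, where 30.3% of all genes did. None of the 15 was past 2-fold, where 2.44% of all genes were called higher and 2.18% lower. The median of the 15 was 0.17, or 0.40 with TMM scaling. The FPKM of the glycolytic members, Ldhb included, summed to 14231 in Stat6 KO and 12343 in WT. Gapdh, the dehydrogenase of glyceraldehyde 3-phosphate, ranked 4 among all genes in Stat6 KO and 3 in WT.

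In the order of the pathway, the first enzymes are the hexokinases, which trap glucose in the cell by phosphorylation. Hk1 was at 91.9 FPKM in Stat6 KO and 61.3 FPKM in WT, a log2 ratio of 0.58 that was the highest of the glycolytic members. Hk2 was at 63.5 FPKM in Stat6 KO and 54.6 FPKM in WT (0.21). The isomerase Gpi1, which makes fructose 6-phosphate, was at 591 FPKM in Stat6 KO and 453 FPKM in WT (0.38). Hk1 and Gpi1 thus stood above the pathway's median and Hk2 close to it.

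The phosphofructokinases, which commit sugar to glycolysis, were nearly level in the 2 libraries. Pfkp was at 146 FPKM in Stat6 KO and 133 FPKM in WT (log2 ratio 0.13). Pfkl, the liver-type subunit, was at 74.9 FPKM in Stat6 KO and 69.3 FPKM in WT (0.11). Pfkm, the muscle-type subunit, was low in both, at 5.04 FPKM in Stat6 KO and 4.59 FPKM in WT (0.11).

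The middle steps, from aldolase to enolase, carried high levels and log2 ratios from 0.04 to 0.25. Aldoa, which splits fructose bisphosphate, was at 1659 FPKM in Stat6 KO and 1399 FPKM in WT (0.25). Tpi1, which interconverts the triose phosphates, was at 862 FPKM in Stat6 KO and 779 FPKM in WT (0.15). Gapdh was at 4333 FPKM in Stat6 KO and 3897 FPKM in WT (0.15). These 3 genes thus stood in the same order within each library, with Gapdh at the top and Tpi1 at the bottom.

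Pgk1, the first ATP-making kinase of the pathway, was at 1076 FPKM in Stat6 KO and 909 FPKM in WT (0.24). Pgam1, which moves the phosphate group, was at 574 FPKM in Stat6 KO and 558 FPKM in WT (0.04), the lowest log2 ratio of the 15. Eno1, the enolase, was at 1430 FPKM in Stat6 KO and 1272 FPKM in WT (0.17). Genes such as Gapdh and Eno1 have near-identical copies in the genome among which reads can be divided, so single values are uncertain. One listed copy, Eno1b, was at 0.98 FPKM in Stat6 KO and 0.82 FPKM in WT.

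The last steps make pyruvate and lactate. Pkm, the pyruvate kinase gene of most tissues, was at 1358 FPKM in Stat6 KO and 1214 FPKM in WT (0.16). Pklr, the pyruvate kinase gene of liver and red blood cells, was at 101 FPKM in Stat6 KO and 75.4 FPKM in WT (0.41). Ldha, the lactate dehydrogenase subunit of glycolytic tissues, was at 1866 FPKM in Stat6 KO and 1462 FPKM in WT (0.35). The heart-type subunit Ldhb was at 0.57 FPKM in Stat6 KO and 0.66 FPKM in WT, so lactate dehydrogenase transcripts were almost all Ldha in both cultures.

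**Figure D2:**
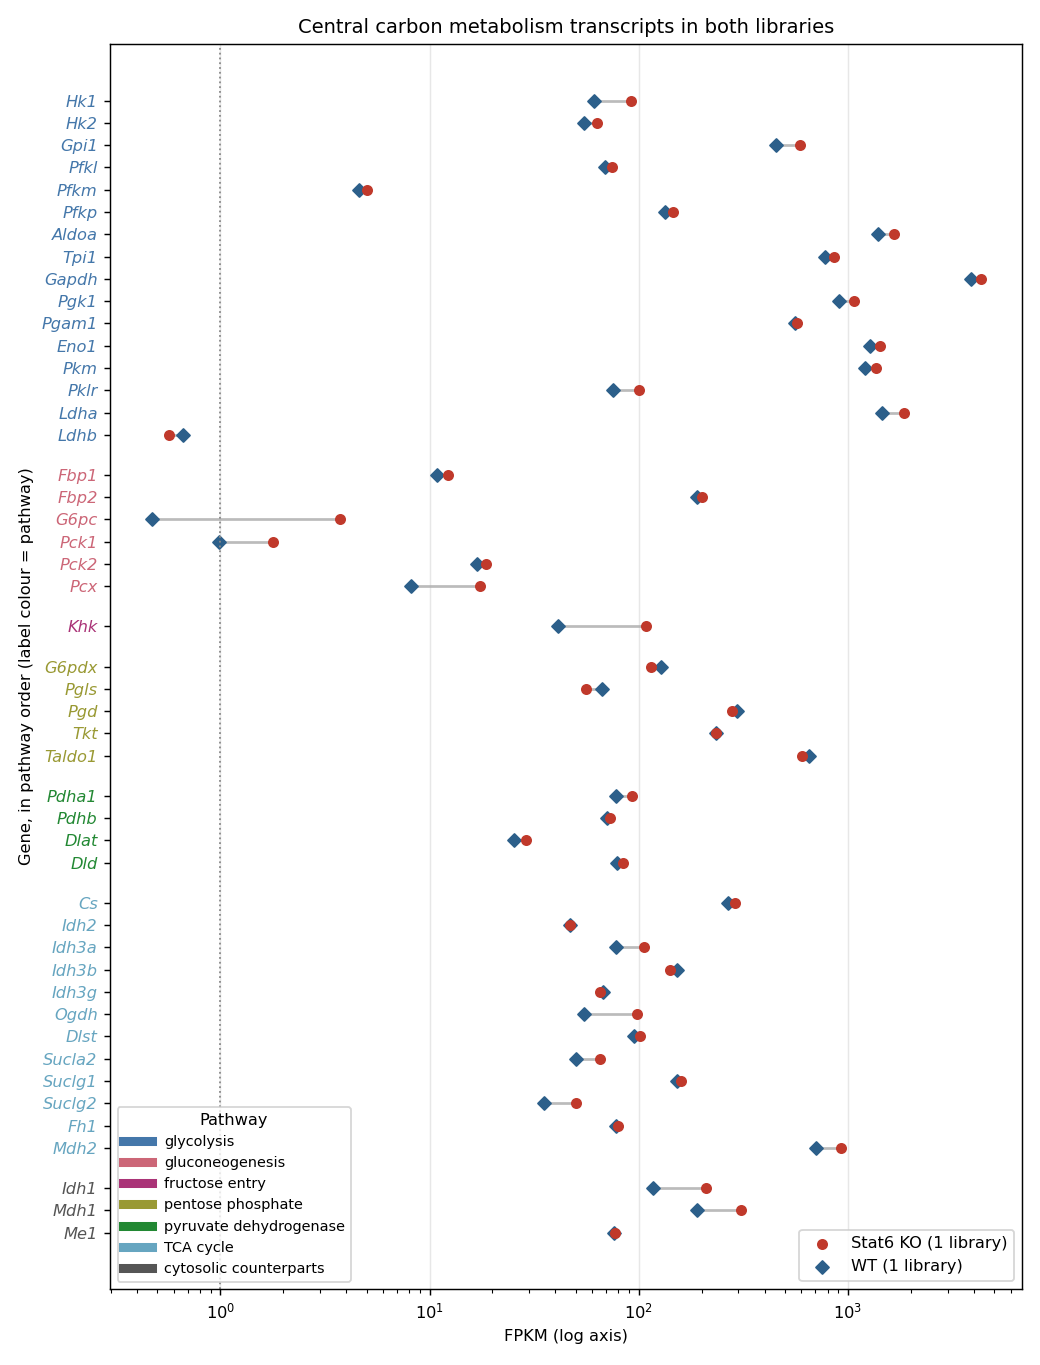
FPKM (log axis) of each of the 47 members, in pathway order, with a red circle for the Stat6 KO library and a blue diamond for the WT library; the dotted line marks 1 FPKM. The glycolytic enzymes from Aldoa to Ldha reach 4333 FPKM, and the widest gaps between the libraries are at G6pc, Khk and Pcx.

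Khk (Entrez gene 16548), the ketohexokinase that phosphorylates fructose, was at 108 FPKM in Stat6 KO and 41.3 FPKM in WT. Its log2 ratio was 1.36, at percentile 98.8 of all genes tested. It was past 2-fold with pseudocounts of 0.1, 1 and 5.

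Among the gluconeogenic enzymes 2 of 6 were called higher and 0 lower, where 2.44% of all genes were called higher and 2.18% lower. Their median log2 ratio was 0.32, and 0.14 with a minimum of 5 FPKM, which leaves out G6pc and Pck1, or 0.15 with a pseudocount of 5. G6pc (Entrez gene 14377), the glucose 6-phosphatase catalytic subunit that releases free glucose, was at 3.73 FPKM in Stat6 KO and 0.47 FPKM in WT. The deposited values differ 7.94-fold, and the pseudocount brings the log2 ratio to 1.69. With the depth estimated from the smallest steps of the values, these levels stand for about 177 reads in Stat6 KO and 22.2 reads in WT. G6pc thus belonged to the rarest members in both libraries and reached the minimum level only in Stat6 KO. With a pseudocount of 5 its log2 ratio was 0.67 and the call was lost.

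Pcx (Entrez gene 18563), the mitochondrial pyruvate carboxylase that makes oxaloacetate, was at 17.4 FPKM in Stat6 KO and 8.11 FPKM in WT. Its log2 ratio of 1.01 lay just inside the threshold, and a pseudocount of 5 ended the call. The nearest members outside it were Idh1 at 0.84 and Ogdh at 0.83. The cytosolic phosphoenolpyruvate carboxykinase gene Pck1 was at 1.78 FPKM in Stat6 KO and 0.99 FPKM in WT (0.48), and also reached the minimum only in Stat6 KO.

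The other gluconeogenic genes stood nearly level. The mitochondrial carboxykinase gene Pck2 was at 18.6 FPKM in Stat6 KO and 17.0 FPKM in WT (0.13). Fbp2, a fructose-bisphosphatase best known from muscle, was at 200.4 FPKM in Stat6 KO and 191 FPKM in WT (0.07). Fbp1, the liver-type enzyme, was at 12.2 FPKM in Stat6 KO and 10.8 FPKM in WT (0.16). The 2 enzymes at the ends of the pathway, Pcx and G6pc, therefore differed more than the fructose-bisphosphatases between them.

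The 250 bases before the transcription start are printed for the 3 called genes and for Gpi1 and Ldha, which have the letters of a STAT6 site there. They are RefSeq sequences of build GRCm38.p6, matched by Entrez number for 46 of the 47 members, and are not coordinates of the mm9 build of the files. Capitals mark 3 motifs: TTC and GAA with 4 bases of any kind between them, the spacing that STAT6 prefers; ACGTG, the core that hypoxia-inducible factors bind; and GTTAAT, part of the site of the HNF1 factors of liver and gut. Both strands were searched, and ACGTG on both strands gives CACGTG.
G6pc, chr11:101367466-101367715, plus strand: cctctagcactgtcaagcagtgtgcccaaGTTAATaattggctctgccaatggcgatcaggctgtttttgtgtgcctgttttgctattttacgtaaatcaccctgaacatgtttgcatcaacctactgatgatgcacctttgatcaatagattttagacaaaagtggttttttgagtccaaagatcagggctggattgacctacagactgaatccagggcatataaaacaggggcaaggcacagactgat
Khk, chr5:30921309-30921558, plus strand: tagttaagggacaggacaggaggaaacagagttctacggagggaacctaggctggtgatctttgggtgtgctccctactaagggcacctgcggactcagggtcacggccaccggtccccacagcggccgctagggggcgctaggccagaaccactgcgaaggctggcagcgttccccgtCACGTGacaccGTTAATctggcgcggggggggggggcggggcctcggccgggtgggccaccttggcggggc
Pcx, first of 2 starts, chr19:4510222-4510471, plus strand: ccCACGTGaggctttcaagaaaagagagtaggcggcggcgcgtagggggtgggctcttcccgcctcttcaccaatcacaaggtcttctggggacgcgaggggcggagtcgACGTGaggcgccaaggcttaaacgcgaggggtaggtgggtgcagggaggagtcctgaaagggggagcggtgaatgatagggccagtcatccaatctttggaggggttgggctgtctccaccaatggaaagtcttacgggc
Gpi1, chr7:34230337-34230586, minus strand: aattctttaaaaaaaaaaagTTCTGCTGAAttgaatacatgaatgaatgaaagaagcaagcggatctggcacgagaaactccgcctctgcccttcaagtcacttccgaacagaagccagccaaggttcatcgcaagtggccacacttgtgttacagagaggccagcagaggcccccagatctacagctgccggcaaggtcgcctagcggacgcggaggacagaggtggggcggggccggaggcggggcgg
Ldha, first of 2 starts, chr7:46845554-46845803, plus strand: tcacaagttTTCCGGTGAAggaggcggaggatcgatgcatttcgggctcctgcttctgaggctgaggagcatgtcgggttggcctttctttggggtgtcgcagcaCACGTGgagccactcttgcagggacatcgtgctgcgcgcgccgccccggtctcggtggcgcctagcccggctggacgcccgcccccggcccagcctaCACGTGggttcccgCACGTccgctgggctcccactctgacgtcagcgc

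The STAT6 motif was found before at least 1 start of 5 of 46 members (10.9%), namely Fh1, Gpi1, Idh3b, Ldha and Pgd, and of 6.76% of all 27025 genes in the promoter table. None of these 5 was called, and their log2 ratios ran from -0.11 for Idh3b to 0.38 for Gpi1. The 3 called genes had no match to it in these windows. ACGTG was found for 15 of 46 members (32.6%) and 18.5% of all genes, Khk, Pcx and Ldha among them. GTTAAT was found for 5 of 46 members (10.9%) and 7.49% of all genes, G6pc and Khk among them. In G6pc it begins 221 bases before the start and in Khk 60 bases before it. The shares of all genes take in genes that were not tested here, so they are not matched to the members. These matches are letters in a window and describe no binding.

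**Figure D3:**
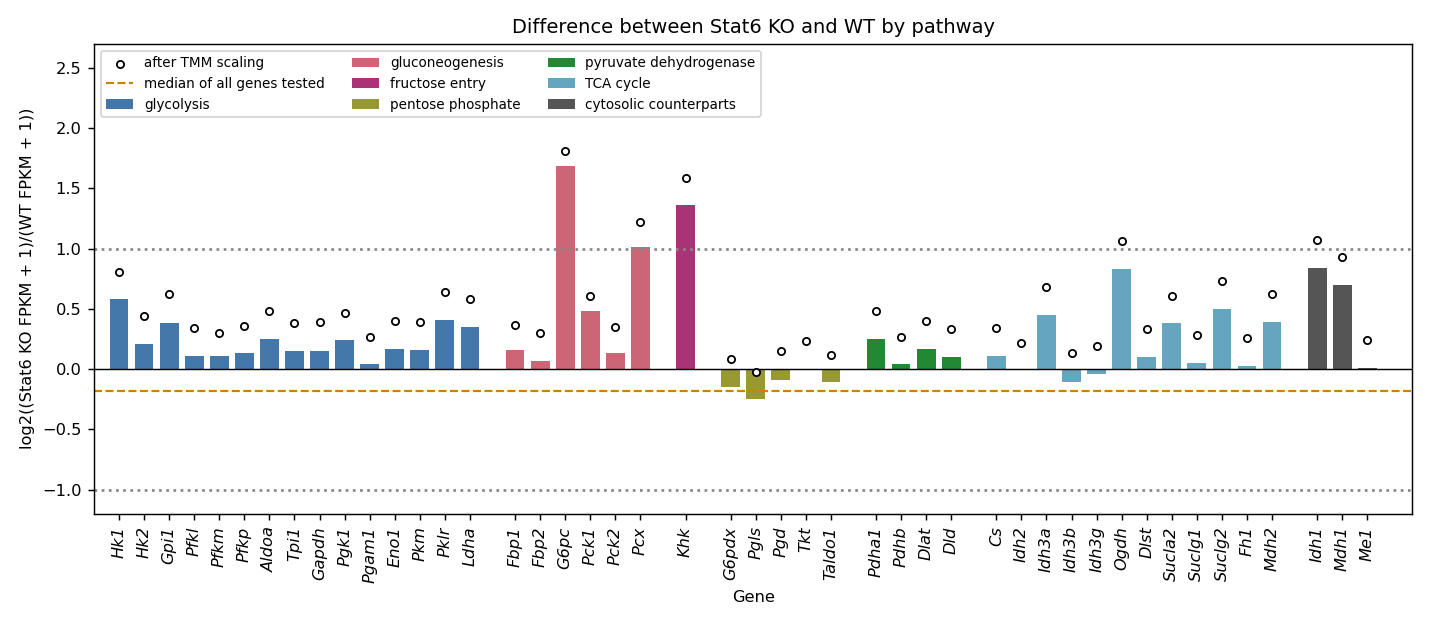
Log2 ratio of Stat6 KO over WT for each of the 46 members tested (bars, coloured by pathway) and the same after TMM scaling (open circles); dotted lines mark 2-fold and the dashed line the median of all genes, -0.18. The bars of G6pc, Khk and Pcx pass 1, and with TMM scaling the circles of Ogdh and Idh1 do too.

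Of the member groups, the 5 pentose phosphate enzymes stood nearest to the median of all genes. This did not hold for genes of the pathway outside the 47. Of 7 such genes tested, 6 lay above 0, where 30.3% of all genes did, with a median log2 ratio of 0.36. All 5 members had log2 ratios at or just below 0, with a median of -0.11, which is 0.07 above the median of all genes. With TMM scaling the members' median became 0.12 and 4 of 5 turned positive, so no direction of this pathway is fixed by these data. The FPKM of the 5 members summed to 1287 in Stat6 KO and 1378 in WT.

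G6pdx, the glucose 6-phosphate dehydrogenase that makes the first NADPH, was at 115 FPKM in Stat6 KO and 127 FPKM in WT (-0.15). Pgls, the lactonase of the next step, was at 56.3 FPKM in Stat6 KO and 67.1 FPKM in WT (-0.25), the lowest log2 ratio of all members. Pgd, which makes the other NADPH, was at 279 FPKM in Stat6 KO and 296 FPKM in WT (-0.09). The 3 oxidative enzymes were thus all slightly lower in Stat6 KO on the deposited scale. Of the enzymes that shuffle sugars in the non-oxidative branch, Tkt, a transketolase, was at 233 FPKM in Stat6 KO and 234 FPKM in WT, and Taldo1, the transaldolase, at 604 FPKM in Stat6 KO and 654 FPKM in WT (-0.11). Within each library, where the scaling between libraries cancels, the ratio of G6pdx to Gpi1, both of which act on glucose 6-phosphate, was 0.194 in Stat6 KO and 0.281 in WT. Of the other gene pairs taken this way, some were nearly level and the rest were higher in Stat6 KO. Fbp2 to Pfkp was nearly level, at 1.37 in Stat6 KO and 1.43 in WT, as was Ldha to Pdha1, at 20.0 and 18.7. Pcx to Pdha1 was higher, at 0.186 in Stat6 KO and 0.104 in WT. So were Khk to Hk1, at 1.17 and 0.674, and Idh1 to Me1, at 2.73 and 1.53. Idh3a to Idh3b, at 0.751 and 0.511, and Mdh1 to Mdh2, at 0.333 and 0.267, were as well. Ogdh to Dlst, given below, was also higher.

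The pyruvate dehydrogenase complex links glycolysis to the TCA cycle, and its 4 members here had log2 ratios between 0.04 and 0.25, with a median of 0.14. Pdha1, which encodes the regulated E1 alpha subunit, was at 93.4 FPKM in Stat6 KO and 78.2 FPKM in WT (0.25). Pdhb, the E1 beta subunit, was at 72.6 FPKM in Stat6 KO and 70.4 FPKM in WT (0.04). The E1 subunits thus stood at like levels in each library. Dlat, the acetyltransferase core, was at 28.8 FPKM in Stat6 KO and 25.4 FPKM in WT (0.17). Dld, the dehydrogenase that this complex shares with the 2-oxoglutarate dehydrogenase complex, was at 84.0 FPKM in Stat6 KO and 78.4 FPKM in WT (0.10). Pdhx, a component of the complex outside the 47 that was named after its values were seen, was at 12.1 FPKM in Stat6 KO and 14.0 FPKM in WT (-0.20, or 0.02 with TMM scaling).

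The 12 mitochondrial TCA cycle genes had a median log2 ratio of 0.10, or 0.33 with TMM scaling. None was past 2-fold as deposited, where 2.44% of all genes were called higher and 2.18% lower. With TMM scaling 1, Ogdh, was called higher, where 3.56% of all genes were. Ogdh (Entrez gene 18293), the E1 subunit of the 2-oxoglutarate dehydrogenase complex, was at 97.8 FPKM in Stat6 KO and 54.6 FPKM in WT (0.83). Dlst, the core subunit of the same complex, was at 101 FPKM in Stat6 KO and 94.6 FPKM in WT (0.10). The ratio of Ogdh to Dlst was therefore 0.967 in Stat6 KO and 0.577 in WT.

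The subunits of the NAD-dependent isocitrate dehydrogenase also differed among themselves. Idh3a, the catalytic subunit, was at 106.5 FPKM in Stat6 KO and 77.9 FPKM in WT (0.45). Idh3b was at 142 FPKM in Stat6 KO and 153 FPKM in WT (-0.11), and Idh3g at 65.2 FPKM in Stat6 KO and 67.3 FPKM in WT (-0.04). Both of these signs turned with TMM scaling, to 0.13 and 0.19. Idh3a made up 34.0% of the FPKM of the 3 subunits in Stat6 KO and 26.2% in WT. The NADP-dependent mitochondrial enzyme Idh2 was at 46.8 FPKM in Stat6 KO and 46.9 FPKM in WT.

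Around the rest of the cycle, the beta subunits of succinyl-CoA ligase had larger log2 ratios than their shared alpha subunit. Suclg2, the GTP-forming beta subunit, was at 50.1 FPKM in Stat6 KO and 35.1 FPKM in WT (0.50). Sucla2, the ATP-forming one, was at 65.2 FPKM in Stat6 KO and 50.0 FPKM in WT (0.38). Suclg1, the alpha subunit, was at 159 FPKM in Stat6 KO and 153 FPKM in WT (0.05). All 3 were above the median of all genes.

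Mdh2, the mitochondrial malate dehydrogenase and the most abundant of the 12, was at 925 FPKM in Stat6 KO and 707 FPKM in WT (0.39). Cs, the citrate synthase that opens the cycle, was at 289 FPKM in Stat6 KO and 268 FPKM in WT (0.11). Fh1, the fumarase, was at 80.0 FPKM in Stat6 KO and 78.3 FPKM in WT (0.03). The gap at Mdh2 was thus larger than at the other 2 enzymes.

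The 3 cytosolic enzymes had the highest median of the groups with more than 1 member, 0.70. None of the 3 was past 2-fold, where 2.44% of all genes were called higher and 2.18% lower. Idh1 (Entrez gene 15926), the NADPH-making cytosolic isocitrate dehydrogenase, was at 210 FPKM in Stat6 KO and 117 FPKM in WT (0.84). Mdh1, the cytosolic malate dehydrogenase of the malate-aspartate shuttle, was at 308 FPKM in Stat6 KO and 189 FPKM in WT (0.70). Me1, the cytosolic malic enzyme, was at 76.8 FPKM in Stat6 KO and 76.1 FPKM in WT (0.01). Idh1 and Mdh1 therefore differed between the libraries and Me1 hardly did. With TMM scaling Idh1 passed 2-fold (1.07), where 3.56% of all genes were called higher, and Mdh1 did not (0.93).

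The isoenzyme make-up, as shares of the summed FPKM of a step, was nearly the same in both libraries at some steps and moved at others. Pkm made up 93.1% of pyruvate kinase FPKM in Stat6 KO and 94.2% in WT. Ldha made up 99.97% of lactate dehydrogenase FPKM in Stat6 KO and 99.95% in WT, and Pfkp 64.6% of phosphofructokinase FPKM in Stat6 KO and 64.4% in WT. Fbp2 made up 94.3% of the fructose-bisphosphatases in Stat6 KO and 94.6% in WT. These steps are therefore led by the same gene in both cultures. Pck2 made up 91.3% of the carboxykinases in Stat6 KO and 94.5% in WT. Idh1 made up 81.8% of the NADP-dependent isocitrate dehydrogenases in Stat6 KO and 71.3% in WT, the largest shift among steps made of members alone. Mdh1 made up 25.0% of malate dehydrogenase FPKM in Stat6 KO and 21.1% in WT. Suclg2 made up 43.5% of the FPKM of the succinyl-CoA ligase beta subunits in Stat6 KO and 41.3% in WT.

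The make-up moved more at the hexokinase step, to which a gene outside the 47 adds an enzyme. Hkdc1, a hexokinase-like enzyme, made up 49.1% of the FPKM of Hk1, Hk2 and Hkdc1 in Stat6 KO and 34.0% in WT. Among the members of this step, Hk1 made up 59.2% of the Hk1 and Hk2 sum in Stat6 KO and 52.9% in WT.

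**Figure D4:**
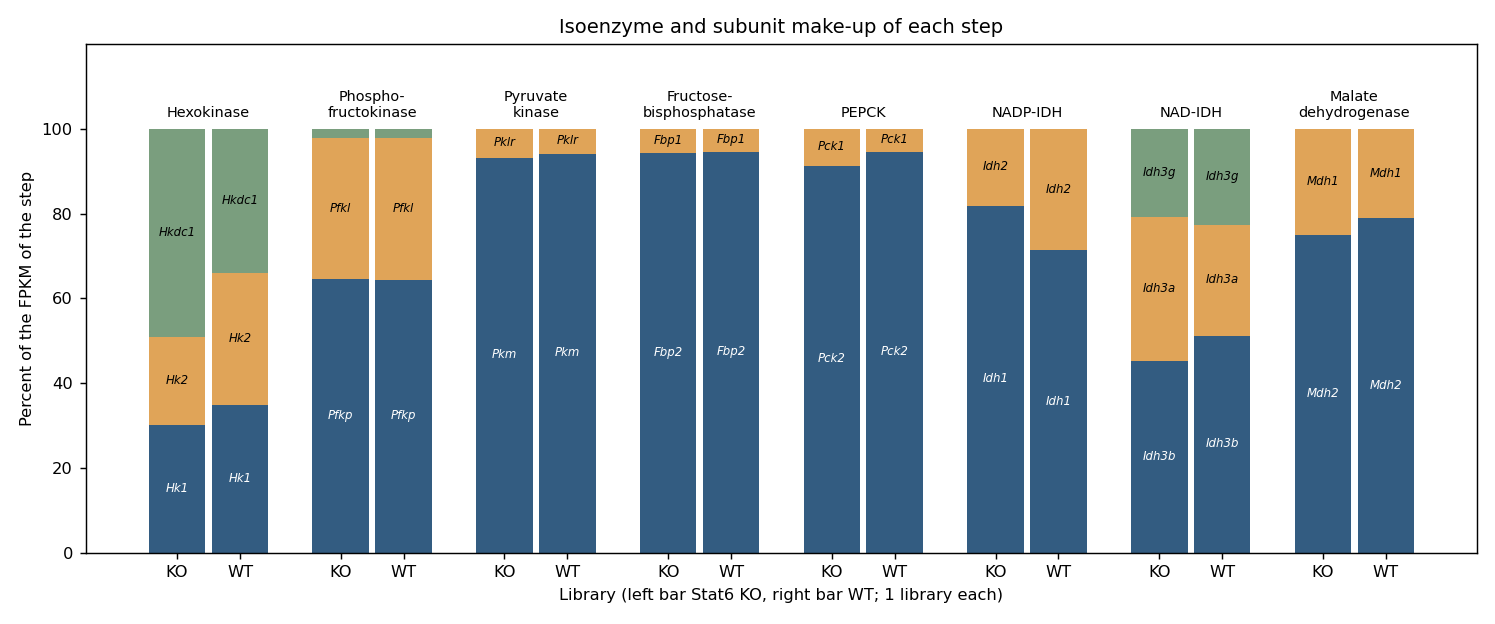
Share of each isoenzyme or subunit in the summed FPKM of its step, with the Stat6 KO library as the left bar and WT as the right bar of each pair. PEPCK is phosphoenolpyruvate carboxykinase, NADP-IDH and NAD-IDH are the isocitrate dehydrogenases; Hkdc1, Idh1 and Idh3a take larger shares in Stat6 KO, among them Hkdc1 with 49.1% against 34.0%.

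Other genes of these pathways were taken from a list of 78 symbols, of which 69 were in the tables and 61 at the minimum level. Their median log2 ratio was 0.24, and 42 of 61 lay above 0, where 30.3% of all genes did. Of the 61, 6 were called higher and 0 lower, where 2.44% of all genes were called higher and 2.18% lower. With TMM scaling 7 were called higher, where 3.56% of all genes were, and 0 lower, where 1.34% were. The 6 were the sugar carriers Slc5a1, Slc2a2 and Slc2a5, the hexokinase-like Hkdc1, the kinase Pdk2 and the malic enzyme Me2. These 6 were named because they were called higher, so their standing on the same side as Khk is fixed by that choice.

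Slc2a5, the fructose transporter of the brush border, was at 12.2 FPKM in Stat6 KO and 1.46 FPKM in WT (log2 ratio 2.42). Slc5a1, the sodium-glucose cotransporter, was at 197 FPKM in Stat6 KO and 38.9 FPKM in WT (2.31). Slc2a2, the basolateral carrier of glucose and fructose, was at 20.2 FPKM in Stat6 KO and 2.99 FPKM in WT (2.41). With the pseudocount of 1 these 3 log2 ratios lay above those of the 46 members, but as a plain ratio of FPKM G6pc, at 7.94, stood above Slc2a2 at 6.76 and Slc5a1 at 5.06. Of the genes chosen after their values were seen, Slc2a1, the glucose carrier of most cells, was at 193 FPKM in Stat6 KO and 187 FPKM in WT (0.05).

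Hkdc1 was at 150 FPKM in Stat6 KO and 59.7 FPKM in WT (1.32). Tkfc, the triose kinase that completes fructose breakdown and was also chosen after its values were seen, was at 159 FPKM in Stat6 KO and 118 FPKM in WT (0.43). Pdk2, a kinase that switches pyruvate dehydrogenase off, was at 18.8 FPKM in Stat6 KO and 7.55 FPKM in WT (1.21). Pdk2 was the only kinase or phosphatase of that complex past 2-fold. Pdp1, a phosphatase that switches it on, was at 3.04 FPKM in Stat6 KO and 5.82 FPKM in WT (-0.76), the lowest of the 8 tested genes of that list. Me2, a mitochondrial malic enzyme, was at 187 FPKM in Stat6 KO and 76.2 FPKM in WT (1.29).

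None of these genes was called lower. The lowest of the glycolytic list was Adpgk, an ADP-dependent glucokinase, at 13.9 FPKM in Stat6 KO and 26.2 FPKM in WT (-0.87). Akr1b3, the aldose reductase that starts the polyol route to fructose, was at 51.0 FPKM in Stat6 KO and 90.6 FPKM in WT (-0.82). Sord, the next enzyme of that route and likewise chosen afterwards, was at 111 FPKM in Stat6 KO and 83.4 FPKM in WT (0.40), so its 2 enzymes stood on opposite sides. Slc2a3, near the minimum, had a log2 ratio of -0.32, and Rpia, of the pentose phosphate pathway, -0.29. Ogdhl, an Ogdh relative, was at 0.90 FPKM in Stat6 KO and 1.75 FPKM in WT (-0.53). Of the lists without a called gene, the highest were Aldh1b1 and Shpk, an aldehyde dehydrogenase and the sedoheptulose kinase, each at 0.75.

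**Figure D5:**
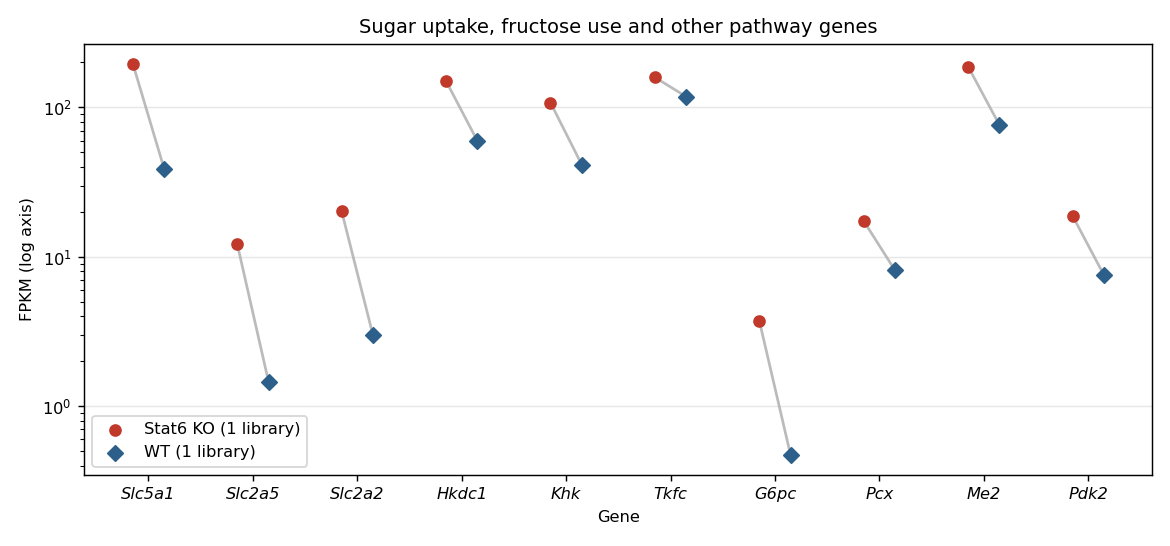
FPKM (log axis) of the called sugar carriers, the other called pathway genes and Tkfc, with the Stat6 KO library as a red circle on the left and WT as a blue diamond on the right of each gene. All genes but Tkfc were drawn because they were called higher in Stat6 KO, so their side is fixed by that choice. Tkfc, at 159 FPKM in Stat6 KO against 118 FPKM in WT, is the one within 2-fold. Genes that were not called, such as Slc2a1 (log2 ratio 0.05) and Akr1b3 (-0.82), are not drawn.

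Markers of differentiated enterocytes, the absorptive cells of the villus, moved with these results. Of 12 such markers 11 were called higher in Stat6 KO and 0 lower, where 2.44% of all genes were called higher and 2.18% lower. Their FPKM summed to 18658 in Stat6 KO and 5461 in WT, none was at 0, and log2 ratios ran from 0.57 for the microvillus gene Vil1 to 2.98 for the lactase gene Lct. Genes of sugar uptake and fructose use are themselves expressed by enterocytes, and the part of these cells in the higher levels of Khk, G6pc and the carriers was not tested. In bulk RNA, more cells of a type and more RNA per cell cannot be told apart.

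Stem cell markers ran from 1.44 FPKM for Tnfrsf19 to 20.6 FPKM for Axin2 in Stat6 KO. In WT they ran from 1.14 FPKM for Tnfrsf19 to 32.4 FPKM for Cdca7. The stem cell name of the cultures was taken as given and was not drawn from these levels. The 10 markers summed to 92.3 FPKM in Stat6 KO and 134 FPKM in WT, with Smoc2 and Tnfrsf19 highest in log2 ratio (0.19). Of the 10, 1, Sox9, was called lower (-1.14, against -0.92 with TMM scaling), where 2.18% of all genes were. Lgr5 was at 1.88 FPKM in Stat6 KO and 1.79 FPKM in WT, and no marker was at 0. Of 8 proliferation markers 1, Mcm7, was called lower (-1.08, against -0.85 with TMM scaling), where 2.18% of all genes were. All 8 lay below 0, where 30.3% of all genes lay above 0, with Mki67 highest at -0.07 (0.14 with TMM scaling). The sums were 218 FPKM in Stat6 KO and 338 FPKM in WT.

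Most markers of other cell types were low, and most were lower in Stat6 KO. The highest were Cd68, at 6.08 FPKM in Stat6 KO and 17.7 FPKM in WT, and Lyz2, at 6.32 FPKM in Stat6 KO and 12.6 FPKM in WT. White blood cell markers summed to 18.0 FPKM in Stat6 KO and 41.0 FPKM in WT, with log2 ratios from Cd68 (-1.40) to Itgam (0.27). Of 7 tested, 2 were called lower, where 2.18% of all genes were. With TMM scaling 1 of 7 was, where 1.34% of all genes were. Endothelial markers summed to 5.15 FPKM in Stat6 KO and 12.6 FPKM in WT, with Kdr highest (-0.33). Of these 5, 1, Cldn5 (-1.47), was called lower, where 2.18% of all genes were. The 6 stromal markers summed to 2.71 FPKM in Stat6 KO and 5.31 FPKM in WT, with Dcn at -1.0, just short of a call, and Thy1 at -0.31, the 2 that were tested. None of these markers was at 0 in either library, and their part in the results was not tested.

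Hypoxia-inducible genes outside the pathway stood on the same side as the glycolytic genes. Of 10 such genes 9 had a log2 ratio above 0, where 30.3% of all genes did. With TMM scaling, which brings the median of all genes to 0.02, all 10 did. None was past 2-fold, where 2.44% of all genes were called higher and 2.18% lower. With TMM scaling 1 was called higher, where 3.56% of all genes were. The median was 0.55, with sums of 1130 FPKM in Stat6 KO and 805 FPKM in WT. The highest was Adm, a vasodilator peptide gene, at 0.94, and the lowest Ddit4, a stress-induced mTOR inhibitor, at -0.20 (0.03 with TMM scaling). Whether oxygen supply differed between the cultures was not recorded in the labels, and its part was not tested.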

How the data were processed

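Total RNA of the 2 cultures was sequenced on a BGISEQ-500 as single-ended reads of 50 bases, with an average of 59 M reads a sample, per the labels' protocols. The deposited values were FPKM per gene, per the file headers, and were given to 2 decimals. HISAT, Bowtie2, RSEM and build mm9 are named in the submitters' processing notes; the sources used here do not give their versions, their roles or the annotation. Because FPKM is relative to the library, a difference in a few abundant genes shifts every other gene. No file holds counts. Steps among low values of short RNA genes corresponded to 20.0 M reads in Stat6 KO and 19.9 M reads in WT, in a search up to 30 M reads. Of low values, 87.7% in Stat6 KO and 85.6% in WT lay within 0.1 read of a whole number; this depth was chosen to make those shares high, and a multiple of it would pass as well. Read numbers are therefore approximate and rest on GENCODE transcript lengths.

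Tables were joined on the Entrez number with Python 3.11.15 and pandas 2.3.3. Log2 ratios used a pseudocount of 1 and a minimum of 1 FPKM in at least 1 library, and calls needed 2-fold. With 1 library per genotype no test, p-value or interval was computed. The calculation was tested on simulated data. Alternatives were pseudocounts of 0.1 and 5, TMM scaling (unweighted, trims of 30% and 5%), the median of all genes set to 0, no minimum, a minimum of 5 FPKM and 1.5-fold. Every member is named; of the other genes, those called and the highest and lowest of each list are. One gene of the other pathway lists is left out of their counts and not reported here. Members and lists were chosen with earlier results of these data known. Motifs, and the shares of Idh1, Mdh1 and Hkdc1, were chosen after values were seen. Ratios of gene pairs within a library were not part of the planned comparisons.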

Additional observations from a re-analysis of the deposited data

How the results depend on the processing

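Members called lower stayed at 0 under every alternative, and members called higher stayed at 3 with a pseudocount of 0.1 and with no minimum. They numbered 1 with a pseudocount of 5, 5 with TMM scaling, 5 with the median of all genes set to 0, 6 at 1.5-fold and 2 with a minimum of 5 FPKM, which G6pc did not reach. Over all genes, those called higher numbered 295, against 374 with a pseudocount of 0.1 and 144 with a pseudocount of 5. They stayed at 295 with no minimum, and numbered 409 with the median of all genes set to 0 and 689 at 1.5-fold. With a minimum of 5 FPKM, under which fewer genes are tested, they numbered 224. Those called lower numbered 263, against 604 with a pseudocount of 0.1, 63 with a pseudocount of 5, 162 with TMM scaling, 160 with the median of all genes set to 0, 150 with a minimum of 5 FPKM and 1381 at 1.5-fold. With TMM scaling the split over all genes was 430 higher and 162 lower. Over these settings the medians ran from 0.16 to 0.40 for glycolysis, 0.14 to 0.50 for gluconeogenesis, 0.12 to 0.36 for pyruvate dehydrogenase, 0.10 to 0.33 for the TCA cycle, 0.69 to 0.93 for the cytosolic enzymes and -0.11 to 0.12 for the pentose phosphate pathway. The sign of 7 members, G6pdx, Pgd, Tkt, Taldo1, Idh2, Idh3b and Idh3g, changed with the scaling. The log2 ratio of G6pc was 2.75 with a pseudocount of 0.1 and 0.67 with a pseudocount of 5. No paired analysis was possible because there is 1 library per genotype, and for the same reason no library could be left out.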
